A study of Mus musculus with 32 samples.

Results

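The intervals described here are annotated 3′ untranslated regions (3′ UTRs) in which sequencing reads carried T-to-C mismatches even though the RNA had never been labelled. They were chosen by their values. Conversions (T-to-C mismatches) and covered T positions (every T of the interval, counted once for each read over it) were summed over the 12 amygdala libraries injected with DMSO alone, and intervals with at least 5000 covered T positions and a summed rate of at least 0.10% were kept. This left 203 of the 13318 intervals with enough coverage (1.52%), out of 23996 intervals in all. They carry 193 gene symbols, and 1 has no symbol. Because the DMSO rates selected them, those rates are given below as a description and are not tested.

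All libraries used here came from the bilateral amygdala of wild-type (WT) mice. They were given a stereotaxic injection of 100 mM 4-thiouridine (4sU) dissolved in DMSO, or of DMSO, 24 h before RNA was extracted with Trizol and alkylated. The mice were at baseline, under acute stress or under chronic stress, which gives baseline 4sU (n = 5), acute 4sU (n = 5), chronic 4sU (n = 4), baseline DMSO (n = 4), acute DMSO (n = 5) and chronic DMSO (n = 3). The labels do not say whether replicates are separate animals, so every p-value measures only the spread between these libraries. No age, strain or form of stress is given in the sources used here.

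In SLAM-seq, cells build 4sU into RNA made after the injection, alkylation changes how the reverse transcriptase reads it, and new RNA shows up as T-to-C mismatches against the genome. Unlabelled RNA should carry few of them, so DMSO libraries give the background. Mismatches of the same kind are also known from sequence variants, from reads placed on a near-identical copy of a gene, and from sequencing errors. Adenosine-to-inosine editing, which is common in brain RNA, reads as A-to-G on the edited strand and as T-to-C when such a read is assigned to a gene on the opposite strand. Which of these applies to an interval was not tested: the tables give sums per interval, not the position of a mismatch.

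The only stretches of these intervals found in the RefSeq reference tables (build GRCm38.p6) belong to Mir3082, a microRNA gene on the minus strand inside the plus-strand Jmjd8 interval described below. Its hairpin, chr17:25831365-25831428, spans 64 bases, and 14 of its bases are A, each facing 1 of the 259 T positions counted for Jmjd8. They are shown with the microRNA seed (bases 2 to 8) in capitals.
mmu-miR-3082-5p: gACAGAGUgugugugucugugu
mmu-miR-3082-3p: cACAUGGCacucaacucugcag
The 5p arm lies at chr17:25831406-25831427 and holds 3 such bases, and the 3p arm lies at chr17:25831366-25831387 and holds 6.

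Libraries held 6361216 to 9438303 reads in 3′ UTR intervals and 217691230 to 347833440 covered T positions. The 10 baseline and acute 4sU libraries stood apart from the other 16: 16.1% to 17.3% of their reads lay in intervals, against 18.2% to 23.9%. A list of 5 oligodendrocyte markers, none of them at 0, summed to 5720 to 8500 CPM (exon counts scaled to library size) in those 10 and to 11800 to 25500 in the other 16. A list of 5 endothelial markers summed to 87.8 to 163 CPM in the 10 and to 141 to 265 in the rest. A list of 5 glutamatergic neuron markers summed to 2250 to 3190 CPM in the 10, to 1290 to 2220 in chronic 4sU and to 777 to 2800 in the DMSO libraries. In bulk tissue, fewer cells of a type and less RNA per cell cannot be told apart. Chronic 4sU against baseline 4sU crosses this division, and the part of the division in any result below was not tested.

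The 203 intervals held 7310135 covered T positions and 21141 conversions in the DMSO libraries, a pooled rate of 0.289% against 0.0249% in the other 13115 intervals. They made up 0.206% of covered T positions and 2.35% of conversions. The excess was concentrated in few members. Snx22, Jmjd8 and Nr1d1 together supplied 44.1% of the members' conversions, and the 32 members with at least 100 conversions supplied 82.1%. At the other end, 111 members rested on 20 conversions or fewer. Rates were mostly just above the limit: 158 members lay under 0.20%, 45 at 0.20% or more, 10 at 0.5% or more and 3 at 1% or more. The exact binomial (Clopper-Pearson) 95% interval of the rate, which covers counting error only, lay wholly at or above 0.10% in 70 members. Zfp446 (0.101%), Cox6c (0.101%) and Alg1 (0.1004%) fell just inside the limit, and Haus8 (0.0996%), Rhod (0.0992%) and Arhgef1 (0.0992%) just outside.

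Members differed in how many DMSO libraries carried their conversions. Only 17 members reached 0.10% in each of the 12 DMSO libraries, and 10 did so in all 26 amygdala libraries: Tmem107, Nr1d1, Snx22, Jmjd8, Tmem150b, Ociad1, Mink1, Anapc11, Hjurp and Trnt1. Mink1, Anapc11 and Trnt1 are named here after their values were seen. In 157 members some DMSO library had no conversion, and in 44 members a single library gave at least 50% of the conversions, counts that low numbers of conversions largely fix. Among the 32 members with at least 100 conversions, the variance between DMSO libraries was a median of 2.64 times that of counting noise, against 1.85 in the 2194 other intervals with as many. The ratio of the highest to the median library was taken in members with at least 300 covered T positions in each DMSO library. Predicted genes, and members whose median library held no conversion, such as Pgam1, were left out. The ratio was 20.6 for S100a10, 17.7 for Akr1a1, 16.4 for Rnpep and 12.6 for Gpx8. S100a10, which encodes an annexin-binding protein, rested on 15 conversions in all, with a median of 0.0336% and a highest library of 0.691%.

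Tmem107, which encodes a protein of the ciliary transition zone, had the highest rate. Its interval (chr11:69072599-69073292, plus strand, 694 bases) held 169 conversions in 7239 covered T positions, or 2.33%. The DMSO libraries ranged from 0.850% through a median of 2.21% to 3.67%, and the 4sU libraries from 0.877% through 2.18% to 4.53%. The ranges overlap almost entirely, and the summed 4sU rate was 2.32%. Of its DMSO reads 34.4% carried a conversion, with 1.94 conversions in each such read, but the interval held only 253 DMSO reads in 12 libraries.

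Nr1d1, which encodes the circadian repressor REV-ERBα, followed at 1.82% (1870 conversions, chr11:98767932-98768218, minus strand, 287 bases). Its interval overlaps exons of Thra, the thyroid hormone receptor α gene on the opposite strand. Of its DMSO reads 32.0% carried a conversion, at 1.00 per converting read. Rates were 2.34%, 2.45%, 2.60%, 2.63% and 2.54% in baseline 4sU and 2.38%, 2.36%, 2.73%, 2.76% and 2.60% in acute 4sU. In chronic 4sU they were 2.05%, 1.80%, 1.78% and 1.77%. The 12 DMSO libraries ranged from 1.54% through 1.76% to 2.14%. Every baseline and acute 4sU library lay above every other library, while chronic 4sU lay within the DMSO range.

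Snx22, which encodes a sorting nexin, contributed the most conversions, 4938 in 410790 covered T positions (1.20%, chr9:66065176-66067099, minus strand, 1924 bases). Exons of Ppib, which encodes the abundant chaperone cyclophilin B, overlap it on the opposite strand. Baseline DMSO libraries read 1.40%, 1.66%, 1.68% and 0.424%, and acute DMSO libraries 1.54%, 0.932%, 1.61%, 1.498% and 0.443%. Chronic DMSO libraries read 1.22%, 1.73% and 0.482%, and chronic 4sU libraries 0.948%, 1.78%, 0.454% and 1.71%. Each of these 4 groups thus held 1 library near 0.4% to 0.5% and the others at 0.932% or more. The 10 baseline and acute 4sU libraries were all low, from 0.488% to 0.576%. The variance of Snx22 between DMSO libraries was 72.6 times that of counting noise, the largest ratio among the members, whose median was 1.89. Among the 2194 other intervals with at least 100 conversions, this ratio reached 84.4 and was over 5 in 40.

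The rate of Snx22 moved with the number of conversions in a read, not with the number of converting reads. Between 11.3% and 17.97% of its reads carried a conversion in all 26 libraries. Conversions per converting read were 1.00 to 1.03 in 14 libraries, 1.94 and 1.95 in 2, 2.92 in 1 and 3.73 to 3.94 in 9. The 14 were the 10 named above and a single library from each other group: replicate 4 of baseline DMSO, replicate 5 of acute DMSO, and replicate 3 of both chronic groups. Libraries with many conversions per read came from both injections and all 3 states. Jmjd8 showed no such steps, with 0.976 to 1.09 conversions per converting read in all 26 libraries.

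**Figure D1:**
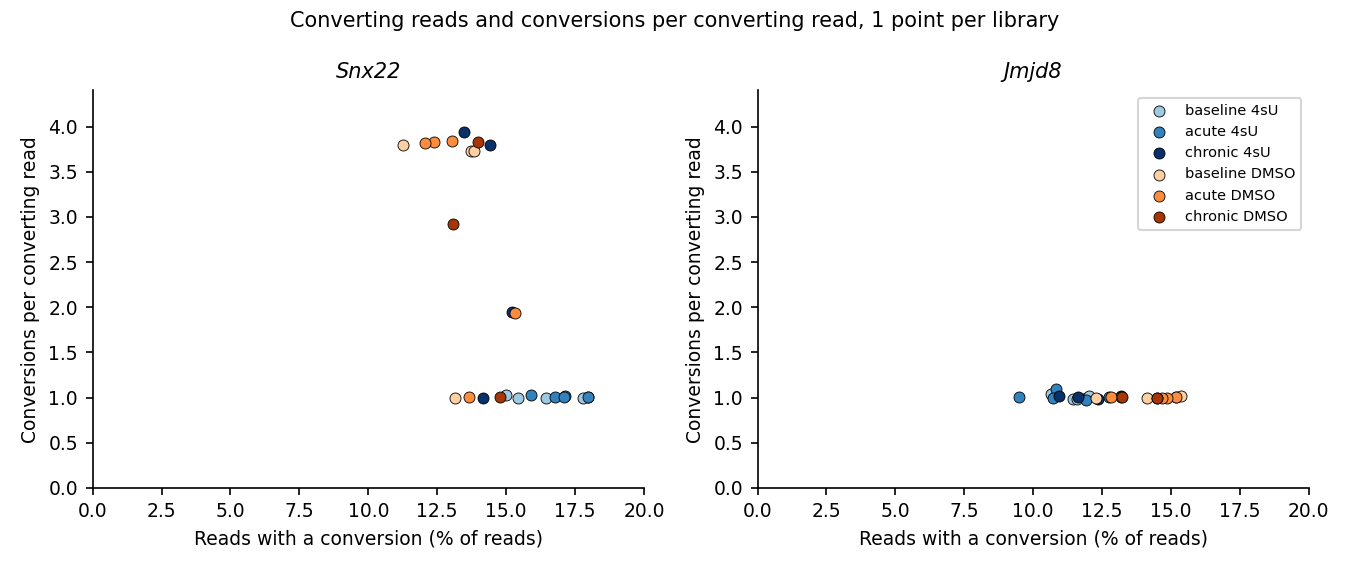
For Snx22 (left) and Jmjd8 (right), each point is a library: the x axis gives the percentage of the interval's reads with a conversion, the y axis the conversions per converting read, and colour the group. Snx22 libraries fall at 1.00 to 1.03, 1.94 to 1.95, 2.92 and 3.73 to 3.94 on the y axis over a similar range of converting reads, and every Jmjd8 library lies close to 1.

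Jmjd8 (chr17:25830591-25831842, plus strand, 1252 bases), a gene of the JmjC domain family, had an even background. Its DMSO libraries ranged from 0.537% through a median of 0.621% to 0.679%, with 2525 conversions in 409177 covered T positions (0.617%). In every one of the 4sU libraries it was present at 0.430% to 0.587%, and the summed 4sU rate, 0.521%, was lower. Of its DMSO reads 14.1% converted. Its interval overlaps exons of Stub1, which encodes the ubiquitin ligase CHIP, on the opposite strand.

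The other members among the 12 highest were Spag17 (0.875%), a part of the motile cilium's central apparatus, Gp1ba (0.796%), a platelet adhesion receptor subunit, Zfp979 (0.588%), a zinc finger gene, and Vps33b (0.573%), which acts in vesicle fusion. Below them came Trp53 (0.528%), which encodes the tumour suppressor p53, Cox4i1 (0.515%), a cytochrome c oxidase subunit, Ccnc (0.451%), which encodes cyclin C of the Mediator kinase module, and Ctu2 (0.383%), a tRNA thiolation gene. Gp1ba carried 3.02 conversions per converting read, and Spag17, Zfp979, Cox4i1 and Ctu2 carried 1.00. Each had under 200 conversions over the 12 DMSO libraries. Vps33b had no conversion in 3 of them and 1.69% in the highest.

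Of the 5 most covered members, beside Snx22 and Jmjd8, Hjurp (a centromeric histone chaperone gene) read 0.232%, Tmem150b 0.293% and Ociad1 0.291%. Tmem150b (chr7:4706832-4709006, minus strand) overlaps exons of Brsk1, which encodes a neuronal polarity kinase, on the opposite strand. Per length, over the DMSO libraries, the exon counts of Tmem150b averaged 0.180 RPKM (counts scaled to library size and gene length) and those of Brsk1 58.1. The rates of Tmem150b in the baseline 4sU libraries were 0.110%, 0.121%, 0.144%, 0.151% and 0.135%, and the acute 4sU libraries ranged from 0.129% to 0.184%. The chronic 4sU libraries, 0.251%, 0.322%, 0.354% and 0.312%, lay above all of them, as did the 12 DMSO libraries at 0.222% to 0.390%.

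**Figure D2:**
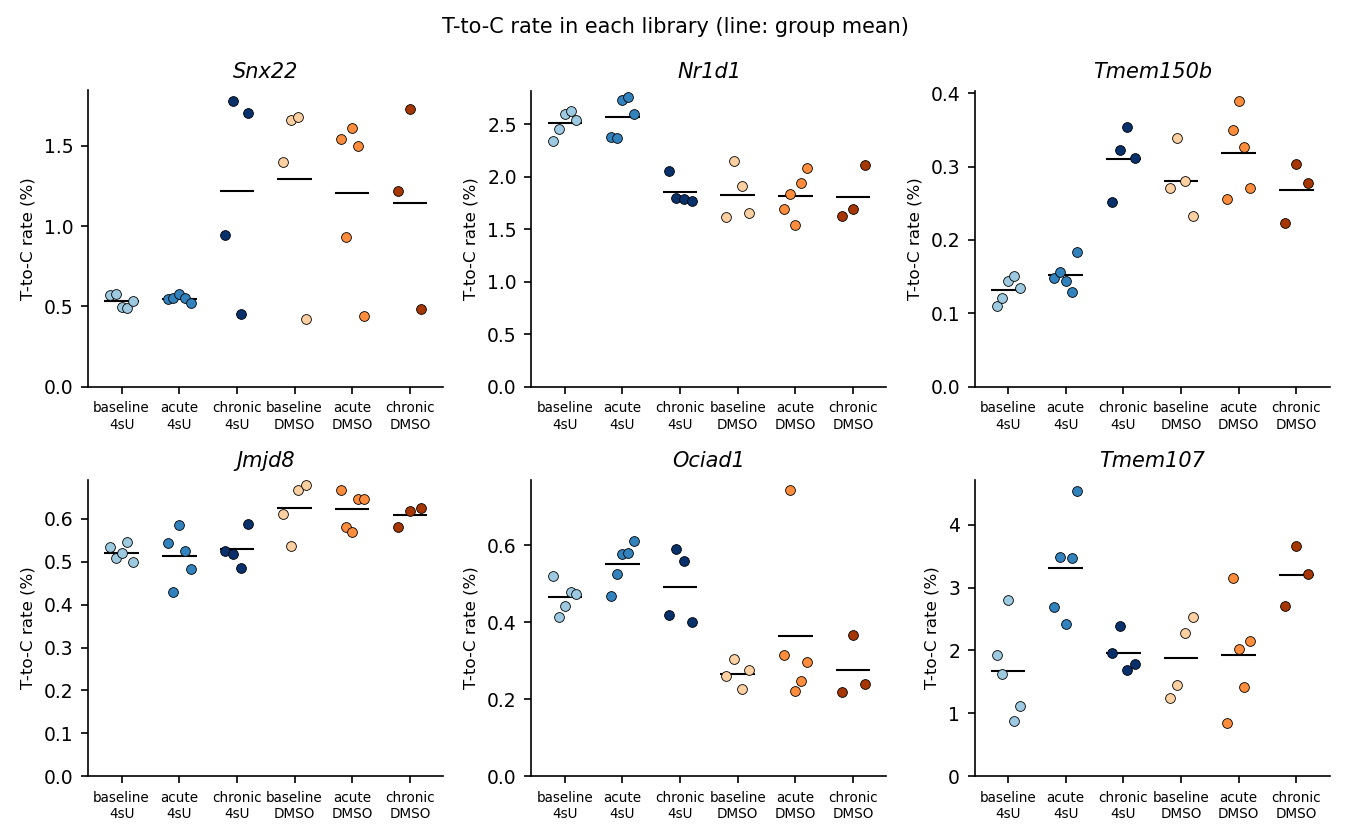
The T-to-C rate (y axis, percent of covered T positions) of 6 members in each library, by group (x axis); points are libraries and lines are group means. Snx22 spreads from 0.424% to 1.78% outside the baseline and acute 4sU groups, and Nr1d1 is higher, and Tmem150b lower, in those 2 groups than in every other library.

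For Nr1d1 and Tmem150b the 10 libraries with few reads in intervals and the other 16 did not overlap. Of the 13254 intervals with coverage in every library, 2 (0.0151%) were higher in all of the 10 and 1 (0.00754%) was lower, so Nr1d1 was 1 of the 2 and Tmem150b was the 1. This is a description of libraries that the data themselves set apart, and no test was made.

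Most members were short. Their median length was 272 bases, against 1341 for the other intervals with enough coverage, while the share of T was close, 28.1% against 29.3%. Of intervals under 150 bases 18.4% were members, of those from 150 to under 300 bases 10.5%, and of those of 1200 bases or more 0.496%. Coverage ran the same way: 7.28% of the intervals with 5000 to 10000 covered T positions were members, and 0.340% of those with 100000 or more. Length and coverage are linked, and low coverage alone widens the spread of a rate, so their parts were not separated. The 32 members with at least 100 conversions had a median length of 1369 bases.

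**Figure D3:**
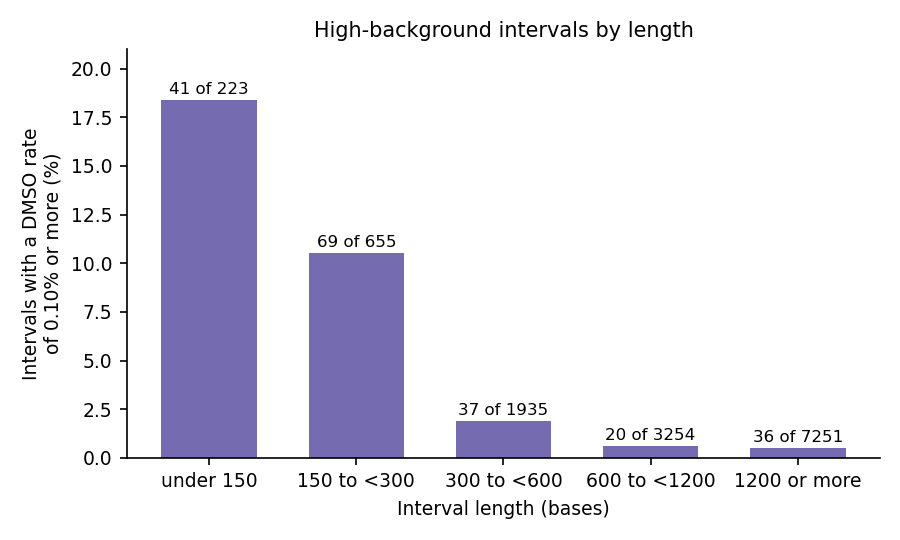
Bars give the percentage of intervals with at least 5000 covered T positions that had a DMSO rate of 0.10% or more (y axis), by interval length (x axis), with the counts above each bar. The share falls from 18.4% under 150 bases to 0.496% at 1200 bases or more.

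Genes of mitochondrial respiration were frequent among the short members, an observation made after the values were seen. Symbols starting with Cox and a digit, Nduf, Atp5 or Uqcr, which name subunits of the respiratory chain and ATP synthase, had 67 intervals with enough coverage, of which 17 were members (25.4%, beside 1.52% of all). The rates of the 17 ran from 0.101% to 0.515% on 7 to 67 DMSO conversions each. Their median length was 145 bases, and that of the 67 was 305. Of all intervals under 150 bases 18.4% were members, and of those from 150 to under 300 bases 10.5%. The parts of length and gene class were not separated. Proteasome subunits (Psma to Psmd) had 6 members of 23 intervals, with a median member length of 193 bases. Mitochondrial ribosomal proteins had 5 of 57, and Zfp genes 3 of 352. Processed pseudogenes are known for many housekeeping genes, but the place of a read among gene copies is not given in the tables and was not tested.

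The other gene lists are set beside the 1.52% of all intervals that were members. None of the 6 RNA editing enzyme genes or 27 known edited brain transcripts with enough coverage was a member. Nor was any of 6 major histocompatibility and linked genes or 23 protocadherin cluster genes. At that share, lists this short would mostly hold no member, so their absence is not a result about these lists. Among the edited transcripts Igfbp7 came nearest, at 0.0878%, and the list's median was 0.0225%. Of 28 genes with near-identical copies 4 were members (14.3%, beside 1.52% of all intervals), among them Fth1 (ferritin heavy chain, 0.182%), Hspa8 (a constitutive heat shock chaperone, 0.126%) and Tuba1b (an α-tubulin, 0.102%). Fth1 alone of these had over 100 conversions, 342, and ranged from 0.124% to 0.252% over the DMSO libraries. Of 21 ribosomal protein genes 2 were members (9.52%), Rpsa (0.153%, 11 conversions) and Rpl4 (0.103%, 7 conversions).

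Exons of another gene lay on the opposite strand of 33 members (16.3%), against 8.11% of the other intervals, and of 13 of the 32 members with at least 100 conversions. They include Nr1d1, Snx22, Spag17, Jmjd8, Ccnc, Ctu2, Tmem150b and Hjurp. In 16 of the 33 the opposite gene had the higher level per length in RPKM, as it did for 452 of 1057 other intervals. For Nr1d1 the levels were 32.1 RPKM against 187 for Thra, for Snx22 7.43 against 39.9 for Ppib, and for Jmjd8 8.15 against 38.3 for Stub1. Whether counting used strand is not stated in the files or labels. Of 51 pairs of opposite-strand intervals that shared at least 50% of each other, 32 had read counts within 1.5 times of each other, and the largest ratio was 12.4 (Rtn4 and Eml6). Reads of a member may therefore include those of its antisense neighbour. None of the opposite intervals that overlapped a member met the rule, but that of Piezo1, opposite Ctu2, read 0.112% on 1794 covered T positions, and others also had fewer than the 5000 required. The interval of Ppib, which shares 211 bases with that of Snx22, read 0.0402%, and that of Stub1, which shares 250 bases with that of Jmjd8, read 0.0334%.

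Most converting reads carried a single mismatch. Conversions per converting read were above 1.5 in 22 members (10.8%), against 1.18% of other intervals. With over 100 conversions these were Gp1ba (3.02), Snx22 (2.77), Lrrtm1 (2.75), Ap1s2 (2.42), Star (2.02), Tmem107 (1.94) and Elapor1 (1.75), of which Lrrtm1, Ap1s2, Star and Elapor1 are named after their values were seen. In 18 of the 32 members with at least 100 conversions the ratio was within 0.05 of 1. It fell under 0.95 in 53 members, which shows that the 2 counts do not cover exactly the same reads. The rate multiplied by the number of T in the interval gives the number of always-mismatched T positions that would produce it under even coverage. It was 1 or more in 23 members and in 13 of the 13115 others, and reached 5.40 in Gp1ba, 5.09 in Snx22, 4.67 in Tmem107 and 4.07 in Hjurp.

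With 4sU, 117 of the 203 members (57.6%) again had a summed rate of 0.10% or more over the 14 4sU libraries, against 4.52% of the other intervals. This depended on the number of conversions behind a member. It held for 28 of the 32 with at least 100 DMSO conversions, for 46 of the 60 with 21 to 99, and for 43 of the 111 with 20 or fewer. The 4sU rate was below the DMSO rate in 139 members (68.5%) and in 30.7% of other intervals. Choosing intervals for a high DMSO rate by itself favours a lower value elsewhere, so this split is not evidence about labelling. Spearman's correlation of the DMSO and 4sU rates across intervals was 0.48 over the 203 members, 0.91 over the 32 and 0.23 over all 13318. The points share libraries and depth, and intervals are not replicates.

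**Figure D4:**
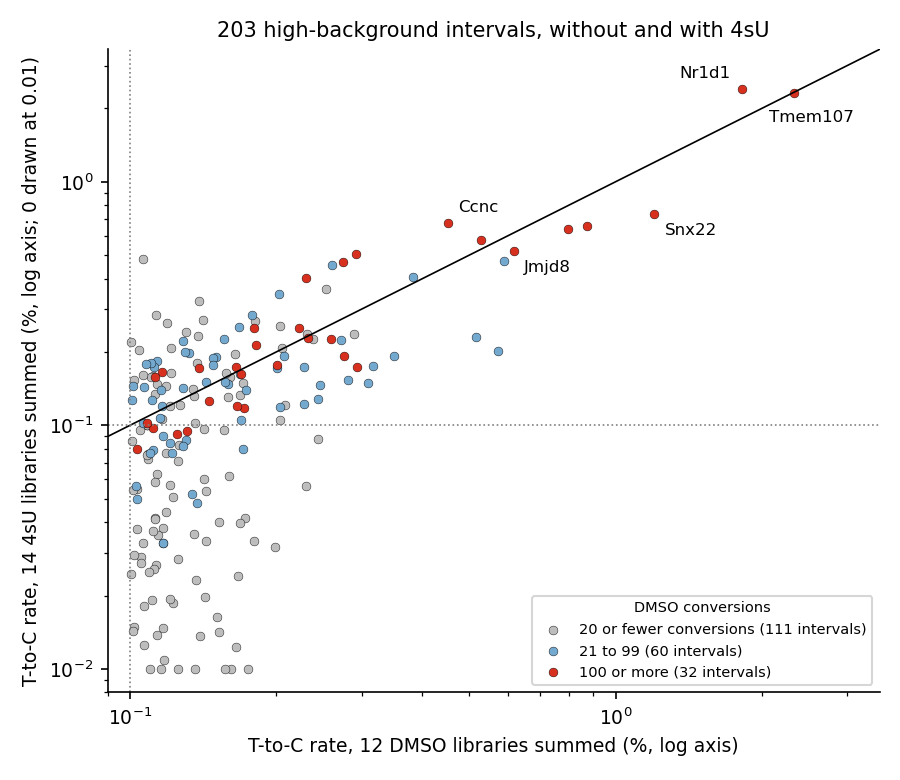
Each of the 203 members is a point: the summed DMSO rate on the x axis and the summed 4sU rate on the y axis, both in percent on log axes, coloured by the number of DMSO conversions. The line marks equal rates, dotted lines mark 0.10%, and the 7 members with no conversion in 4sU libraries are drawn at 0.01. Members with 100 or more conversions follow the line, and those with 20 or fewer spread below it.

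The largest 4sU excess over DMSO was in Nr1d1, at 2.41% against 1.82%. Next were Pgam1 (a glycolytic mutase), at 0.481% against 0.106%, Ccnc, at 0.679% against 0.451%, Ociad1, at 0.503% against 0.291%, and Ptgds (prostaglandin D2 synthase), at 0.454% against 0.261%. Ociad1 lay between 0.3998% and 0.610% in the 4sU libraries and between 0.217% and 0.368% in 11 of the 12 DMSO libraries, and acute DMSO 2 stood at 0.744%, above every 4sU library. Pgam1 had 14 DMSO conversions in all, with a median DMSO library at 0. In the 10 baseline and acute 4sU libraries it read 0% to 0.389%, each below its summed 4sU rate, so chronic 4sU raised that sum. For Ptgds, 9.49%, 14.7%, 7.02% and 16.1% of reads carried a conversion in chronic 4sU, against 0% to 8.70% in the other 4sU libraries.

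The pooled rate of the members was 0.257% ± 0.003 (SD, n = 5) in baseline 4sU, 0.256% ± 0.010 (SD, n = 5) in acute 4sU and 0.316% ± 0.055 (SD, n = 4) in chronic 4sU. With DMSO it was 0.293% ± 0.036 (SD, n = 4) at baseline, 0.282% ± 0.023 (SD, n = 5) under acute stress and 0.296% ± 0.041 (SD, n = 3) under chronic stress. Without the 3 members with most conversions, chronic 4sU read 0.220% ± 0.024 (SD, n = 4; 0.190% to 0.249%) and baseline 4sU 0.162% ± 0.006 (SD, n = 5; 0.157% to 0.171%), with no overlap. Without those 3, the members averaged 0.186% in baseline DMSO, 0.179% in acute DMSO and 0.195% in chronic DMSO. The remaining 13115 intervals read 0.0269% ± 0.0030 (SD, n = 4) with DMSO and 0.0473% ± 0.0050 (SD, n = 5) with 4sU at baseline. These intervals were also higher in chronic 4sU, at 0.0621% ± 0.0135 (SD, n = 4). Their chronic 4sU libraries ranged from 0.0481% to 0.0772% and their baseline 4sU libraries from 0.0417% to 0.0542%. No comparison of 4sU with DMSO is made for the members, whose DMSO rates chose them.

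Stress was then compared within the 4sU libraries, whose values the choice of members did not use. Chronic 4sU lay with the DMSO libraries in the division of libraries described above. Choosing on DMSO rates may therefore favour members that are higher in chronic than in baseline 4sU, which was not tested. In acute against baseline 4sU none of the 57 members, of 9711 intervals, with enough coverage to test (a mean of at least 2000 covered T positions in the 4sU libraries) was called, and their median log2 change was 0.14. None of the 9711 was called either (0% higher, 0% lower; edgeR quasi-likelihood test, Benjamini-Hochberg adjusted p under 0.05). At an unadjusted p under 0.05 there were 5 members and 525 intervals in all, and DESeq2 called 0 members.

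In chronic against baseline 4sU 4 of the 57 members rose and none fell, beside 0.268% of all tested intervals higher and 0.0206% lower. All 4 calls were lost with the replicate number as a block, where 4 of the 9711 intervals were called. The number called over all intervals, 28, moved to 142 without chronic 4sU replicate 1, to 8 without baseline 4sU replicate 2, to 12 without baseline 4sU replicate 5, to 10 without chronic 4sU replicate 4, and to 113 with DESeq2. The median log2 change was 0.21 over the members and 0.33 over all intervals tested. Snx22 rose by 1.20 ± 0.26 (SE; log2, adjusted p = 0.00625). Tmem150b rose by 1.23 ± 0.29 (adjusted p = 0.0154), a call lost without baseline 4sU replicate 2 or 5 or chronic 4sU replicate 3. Ly6h, whose product is a surface protein of the Ly6 family, rose by 2.15 ± 0.48 (adjusted p = 0.00625), a call lost without baseline 4sU replicate 2. The rate also rose in 1 of the 2 overlapping Ldhb (lactate dehydrogenase B) intervals, which share reads, by 1.89 ± 0.50 (adjusted p = 0.0491), a call lost in 8 of the 9 fits that left out a library. With libraries rescaled to a common overall rate the median over all intervals shifted from 0.33 to -0.04, and the calls became 3 higher and 2 lower among the members and 11 higher and 12 lower overall. Snx22, Tmem150b and Ly6h were still higher, and Trnt1 (-1.45 ± 0.28, adjusted p = 0.000249) and Nr1d1 (-0.79 ± 0.15, adjusted p = 0.000387) were lower.

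Ly6h read 0.0717%, 0.0216%, 0.0567%, 0.0368% and 0.0269% in baseline 4sU and 0.216%, 0.211%, 0.199% and 0.158% in chronic 4sU. These groups did not overlap, but the acute 4sU libraries, at 0.0304% to 0.130%, and the DMSO libraries, at 0.0608% to 0.223%, spread between and across them. The called Ldhb interval read 0.0538% to 0.117% in baseline 4sU and 0.0812%, 0.324%, 0.255% and 0.421% in chronic 4sU, so its lowest chronic library lay within the baseline range. For Snx22, chronic 4sU 3, at 0.454%, lay below all baseline 4sU libraries. Counted as reads with a conversion over all reads, Snx22 turned from higher to lower, to -0.21 (adjusted p = 0.784). The Snx22 call was also lost without chronic 4sU replicate 2 or 4.

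Reads per interval entered the choice of members through covered T positions in the DMSO libraries. These set a minimum and are the divisor of the rate. All 203 passed the filter on low counts, which that minimum makes likely. The minimum may also favour members with more reads in the DMSO libraries and in chronic 4sU, which lay with them, than in baseline 4sU. The divisor may instead favour fewer reads in the DMSO libraries. Of intervals with 5000 to 10000 covered T positions 7.28% were members, and of those with 100000 or more 0.340%. Neither effect was tested. For members with a gene on the opposite strand, such as Nr1d1 and Ctu2, the reads of the interval may include those of that gene. In acute against baseline 4sU 0 members were called, beside 0.172% of 15713 intervals higher and 0.0509% lower (edgeR quasi-likelihood test; 6 members at an unadjusted p under 0.05, DESeq2 also 0). With DMSO, where 0.986% of intervals were higher and 0.465% lower, 1 member rose. This was Mt2, which encodes a metallothionein that binds zinc and responds to glucocorticoids. Its reads were 10.4, 10.6, 15.5 and 21.7 CPM, scaled by TMM, in baseline DMSO and 20.4, 37.3, 24.7, 20.9 and 25.1 in acute DMSO, a log2 change of 0.83 ± 0.20 (SE; adjusted p = 0.0239). The groups overlapped by 1 baseline library, and the call was lost without baseline DMSO replicate 1, 2 or 3 or acute DMSO replicate 3. In acute against baseline 4sU Mt2 changed by 0.58 ± 0.18 (adjusted p = 0.418), with 26.9 to 37.7 CPM against 18.7 to 23.9.

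In chronic against baseline 4sU 27 members rose (13.3%) and 49 fell (24.1%), beside 24.5% of all intervals higher and 22.3% lower. The median log2 change was -0.16 over the members and 0.00 over all intervals. Of the 17 members with respiratory chain or ATP synthase symbols 3 rose (Cox5b, Cox6c and Ndufb6), 1 fell (Atp5b), and the median log2 change was 0.17; Cox6c and Atp5b are named after their values were seen. Cox5b, a cytochrome c oxidase subunit, rose by 2.14 ± 0.41 (SE; adjusted p = 8.09e-05), and Ndufb6, a complex I subunit, by 1.44 ± 0.33 (adjusted p = 0.000766). Tma16, a ribosome-associated gene, rose by 2.25 ± 0.65 (adjusted p = 0.00534), Zfp979 by 1.77 ± 0.39 (adjusted p = 0.000415) and Tbca, a tubulin folding cofactor, by 1.62 ± 0.37 (adjusted p = 0.000616). Each of them was below 7 CPM in these 2 groups. Cox5b read 0.886, 1.26, 0.587, 1.07 and 0.310 CPM at baseline and 2.77, 4.95, 5.27 and 1.80 under chronic stress, with no overlap.

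Among the 49 falls the 5 largest were as follows. Zfp341 fell by 1.37 ± 0.25 (SE, log2; adjusted p = 4.45e-05), Pcsk1n, which encodes the neuroendocrine peptide precursor proSAAS, by 1.27 ± 0.20 (adjusted p = 9.51e-06) and Rasgrf1, a neuronal Ras exchange factor, by 1.22 ± 0.14 (adjusted p = 4.37e-08). Nr1d1 fell by 1.20 ± 0.10 (adjusted p = 6.14e-11) and Ctu2 by 1.16 ± 0.25 (adjusted p = 0.000373). Nr1d1 read 132, 123, 123, 138 and 115 CPM in baseline 4sU and 51.7, 55.4, 62.0 and 49.8 in chronic 4sU. Its acute 4sU libraries read 112 to 130 CPM, within or near the baseline range, and all 12 DMSO libraries read 49.6 to 77.4. The high group thus consisted of the same 10 libraries that had the higher Nr1d1 conversion rate, few reads in intervals and low oligodendrocyte marker sums. The share of all intervals whose reads split in this way was not computed. In chronic against baseline 4sU 46.8% of all intervals tested were called.

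**Figure D5:**
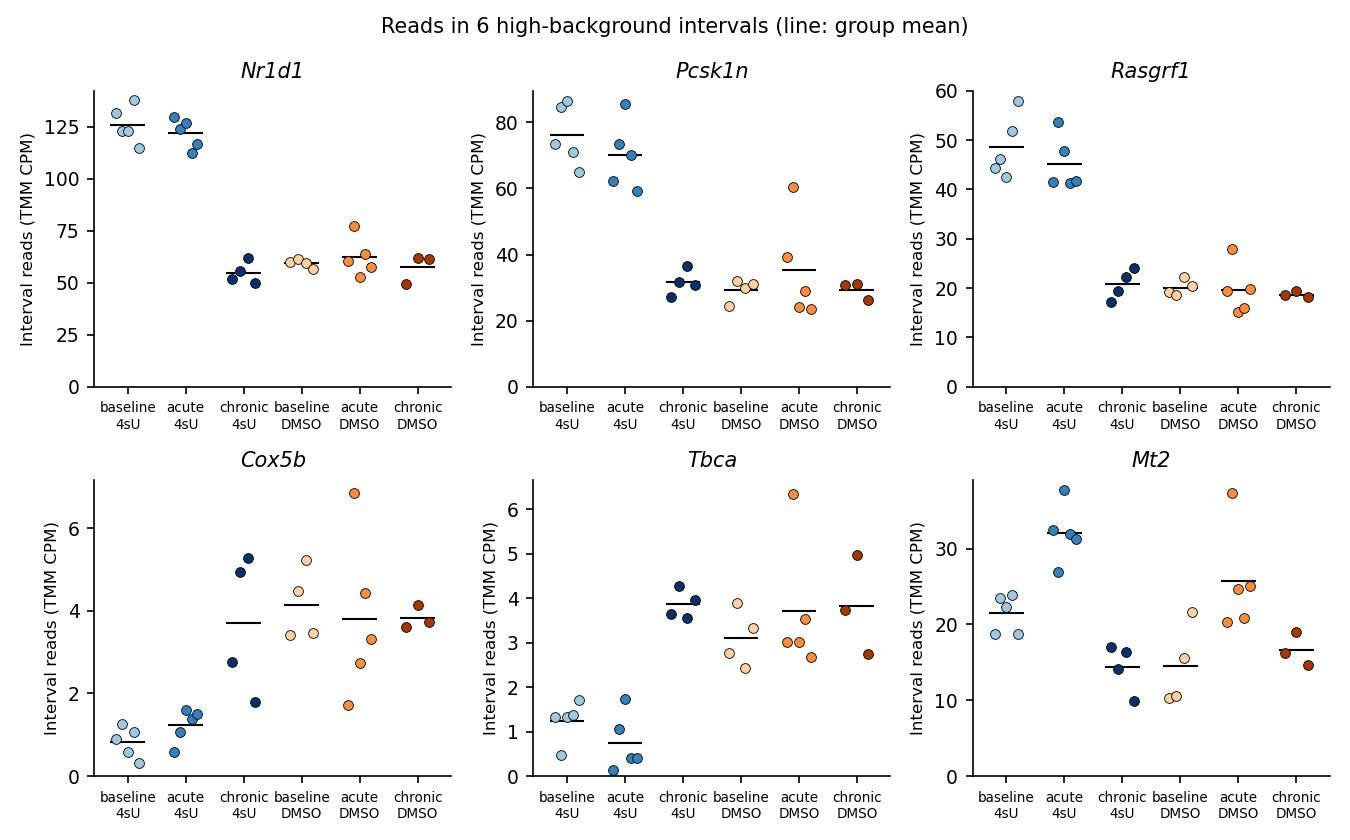
Reads in 6 members, in CPM scaled by TMM (y axis), by group (x axis); points are libraries and lines group means. Nr1d1, Pcsk1n and Rasgrf1 are high, and Cox5b and Tbca low, in the baseline and acute 4sU groups, and Mt2 is highest in acute 4sU.

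In chronic against baseline DMSO, which both lie among the other 16 libraries, 0 members and 0% of intervals in either direction were called (edgeR; 3 members and 386 intervals at an unadjusted p under 0.05; DESeq2 called 0 members). The values there were -0.04 ± 0.11 (SE, log2) for Nr1d1, 0.00 ± 0.23 for Pcsk1n, -0.10 ± 0.16 for Rasgrf1, -0.11 ± 0.37 for Cox5b and 0.30 ± 0.37 for Tbca. Whether these differ from the 4sU values was not tested.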

How the data were processed

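Per the file headers, the authors ran slamdunk 0.4.3 on each amygdala library over 3′ UTR intervals named by RefSeq accession. The deposited tables hold whole-number counts of covered T positions, conversions, reads and converting reads, a conversion rate as a fraction of covered T positions, and reads scaled to CPM of the library, per the file headers. Exon counts per gene were deposited unnormalised. The mm10 build, featureCounts 2.0.1, HISAT2 2.1.0, cutadapt 3.1 and SAMtools 1.9 are listed in the submitters' processing notes. For base quality, variant filter, strand and multiple matches, the settings were not given in the sources used here. Auditory cortex libraries were not used.

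The members and all gene lists were chosen with earlier results of these data known. Named members were the 12 highest rates, the 5 most covered, the 3 on either side of the limit and the 5 largest 4sU excesses. The 5 least even with a conversion in the median DMSO library, list members, and up to 5 called per direction and test were also named. Others are marked where named. Some members that this rule names are not reported here. Overlaps were found with bedtools 2.31.1 (at least 1 shared base) in Python 3.11.15, and 23890 of 23996 intervals matched a symbol.

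Conversions were tested with edgeR 4.0.16 (R 4.3.3) as counts, offset by log covered T positions, and reads with TMM scaling and filterByExpr, by robust quasi-likelihood fits sharing the spread of all groups concerned. P-values were adjusted over all intervals (Benjamini-Hochberg), called under 0.05. The scripts were tested on simulated data. Replicate numbers did not pair libraries in their reads: correlations of same-numbered libraries' deviations ran from -0.11 to 0.12. Pairing in conversion rates was not checked. No library pair agreed within sampling noise.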

Additional observations from a re-analysis of the deposited data

Results flagged for a closer look

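The 12 highest and 5 most covered members, 15 intervals in all, and the members' pooled rate were checked for single libraries far from the others of their group, in groups of 4 or 5 libraries. Of 80 such checks 3 were positive, and chance gives about 1 in 20.

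Vps33b read 1.101% in baseline 4sU replicate 3, and 0% to 0.150% in the other 4 libraries of that group. Its libraries there held 455 to 682 covered T positions. Ociad1 read 0.744% in acute DMSO replicate 2, and 0.221% to 0.316% in the other 4. Nr1d1 read 2.05% in chronic 4sU replicate 1, and 1.77% to 1.80% in the other 3.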

How the results depend on the processing

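The 203 members became 410 with a minimum of 2000 covered T positions, 109 with 10000 and 69 with 20000, 45 at a rate of 0.20% or more, and 98 when the median of the library rates was used, 94 of them among the 203. Leaving out each DMSO library in turn gave 184 to 208, of which 156 to 179 were among the 203, and leaving out the 5 acute DMSO libraries gave 175, with 101 shared.

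In chronic against baseline 4sU, calls of conversion rate numbered 1 to 5 when a replicate was left out, against 4. The lowest count, 1, came without baseline 4sU replicate 2, and there were 2 without baseline 4sU replicate 5 or chronic 4sU replicate 2, 3 or 4. With the replicate number as a block 0 were called, and Ly6h was then at an adjusted p of 0.0506 (edgeR), Tmem150b at 0.0723 and Snx22 at 0.145. The numbers do not pair the libraries in their reads, but pairing in conversion rates was not checked. The block changed no other count of called members by over 1.5 times. As reads with a conversion, Snx22 moved to -0.21. The Ldhb call was lost in 14 of 15 alternatives. DESeq2 gave 4 higher and 2 lower.

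For reads, acute against baseline 4sU gave 1 call with only the 2 groups fitted and 1 with exon counts, against 0. Acute against baseline DMSO, with 1 call, gave 0 with only the 2 groups fitted, 3 with DESeq2 and 6 with exon counts. It gave 0 to 5 with a replicate left out, 5 of them without acute DMSO replicate 2, 3 without acute DMSO replicate 5, and 0 without acute DMSO replicate 3 or baseline DMSO replicate 1, 2 or 3. Chronic against baseline 4sU gave 62 to 72 calls with a replicate left out, against 76, and the 10 named changes were called in every alternative that could be computed. The cause of these differences was not tested. A rate near 0.10% at 5000 covered T positions rests on about 5 conversions, which limits what a single library can show.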
